A study of Mus musculus with 15 samples.

Results

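The calcium/calmodulin kinase genes described here are 9 of the 23329 genes counted in mouse tumors with and without caspase-2. They are the 4 genes of CaM kinase II (*Camk2a*, *Camk2b*, *Camk2d* and *Camk2g*), *Camk1* and *Camk1d* of CaM kinase I, *Camk4* of CaM kinase IV, and *Camkk1* and *Camkk2*, which encode the kinases that activate CaM kinases I and IV. They were taken by name and chosen by their read counts over the 4 groups of tumors, so their levels and differences between groups are a description of values that were known when they were chosen. Their false discovery rates (FDR) say where each gene stood in a fit over all genes, and they are no independent test of the set. All 9 passed the filter on low counts, over 1 CPM (reads scaled to a common library size) in at least 3 tumors, as did 14880 genes in all.

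These kinases read calcium. When calcium rises in a cell it binds calmodulin, and calcium-loaded calmodulin opens the autoinhibited kinases. CaM kinase II assembles from subunits of any of the 4 genes into a holoenzyme that can phosphorylate itself and stay active after calcium falls. CaM kinases I and IV need a second step, phosphorylation by a CaM kinase kinase, and CaM kinase IV works in the nucleus on transcription factors such as CREB. *Camk2a* and *Camk2b* are best known from neurons, *Camk2d* and *Camk2g* are used in most tissues, and CaM kinase IV is known from neurons and T cells.

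Tumors of 15 mice are described, 1 library a mouse. Another *EμMyc/Casp2*-/- tumor, which the study sequenced and then removed as an outlier, is not analysed here. *EμMyc* mice express c-Myc from an enhancer active in B cells. Their lymphomas were taken from cervical lymph nodes, 4 of *EμMyc* mice (onset at 13 to 19 weeks) and 3 of *EμMyc/Casp2*-/- mice (8 to 12 weeks), on a C57BL/6 background. *Th-MYCN* mice (Th-MycN in the labels) express MYCN from the tyrosine hydroxylase promoter, active in the sympathetic lineage. Their neuroblastomas were paraspinal thoracic tumors picked for few or no blood vessels, 4 of *Th-MYCN* (10 to 21 weeks) and 4 of *Th-MYCN/Casp2*-/- mice (15 to 24 weeks), on a Sv129/C57BL6 background. Every mouse thus carried an oncogene, and the groups compared differed in whether the mouse also lacked caspase-2, a protease of the cell death family. The submitters describe its loss as hastening the lymphoma and delaying the neuroblastoma, and the question is which transcripts differ in each. The ages at onset of the 2 lymphoma genotypes did not overlap, and there a difference of age cannot be told apart from one of genotype. Those of the 2 neuroblastoma genotypes overlapped but reached later without caspase-2, and the part of age there was not tested. Tumor type cannot be told apart from strain background and site.

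Libraries held 4940464 to 17638029 reads on genes of the second strand, and 3 reads, the least taken here as detectable for counting error, came to 0.173 to 0.586 CPM. Reads on *Casp2*, the targeted gene, were fewer without caspase-2. They ranged from 125 to 203 CPM in *EμMyc* and from 51.9 to 76.1 in *EμMyc/Casp2*-/- lymphomas (log2 fold change -1.35, FDR 0.0004), and from 76.0 to 125 in *Th-MYCN* and 39.6 to 80.2 in *Th-MYCN/Casp2*-/- neuroblastomas, which overlapped (-0.79, FDR 0.101). The counts do not show which exons the remaining reads cover. The tumors matched their labels: 7 B cell markers summed to at least 2082 CPM in every lymphoma and at most 15.9 in every neuroblastoma, and 8 sympathoadrenal markers to at least 3835 CPM in every neuroblastoma and at most 22.9 in every lymphoma. Lymphoma EuMycC2ko215 stood apart. It was the shallowest library, and 10 T cell markers summed to 1589 CPM in it against 54.1 to 257 in the other lymphomas. Its 5 macrophage markers summed to 1302 CPM, against 230 to 849 in the others. Values without this tumor are therefore given beside the results that compare the *Casp2*-/- lymphomas.

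The 4 *Camk2* genes are close relatives, and reads of 50 bases had to tell them apart. No window of 50 bases in the coding transcript of any of the 9 genes occurs in another of them. The stretch below is shown because it is the place where *Camk2b* comes closest to both *Camk2d* and *Camk2g*. It runs over coding bases 295 to 344, counted from the A of the start codon, across the junction of exons 5 and 6 in each gene. Capitals mark bases that differ, in *Camk2d* and *Camk2g* from *Camk2b*, and in *Camk2b* from either. The sequences are from GENCODE M21 transcripts (GRCm38) and read 5′ to 3′ along the mRNA. The window spans chr11:5992890-5997929 (minus strand) for *Camk2b*, chr3:126767533-126770787 (plus) for *Camk2d* and chr14:20766223-20770110 (minus) for *Camk2g*, intron included.
Camk2b: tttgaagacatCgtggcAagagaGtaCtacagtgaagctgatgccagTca
Camk2d: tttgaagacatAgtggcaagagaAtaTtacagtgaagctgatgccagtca
Camk2g: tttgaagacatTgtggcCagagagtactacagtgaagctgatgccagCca
Even here a read crosses 3 bases that separate *Camk2d* from *Camk2b* and 3 that separate *Camk2g* from *Camk2b*. The median over all windows of *Camk2b* was 13 differences to *Camk2d* and 12 to *Camk2g*.

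The study ran quantitative PCR on *Camk2a*, *Camk2b* and *Camk2g*. Its primers for *Camk2b* and *Camk2g* are shown because few bases set each apart from its paralogs. No other gene's transcript holds any of the 4 primers exactly, and the best match to another *Camk2* gene had 2 differences for either *Camk2b* primer and 3 and 5 for those of *Camk2g*. The *Camk2b* pair lies on exons 8 and 9 (coding bases 569 to 683) and the *Camk2g* pair on exons 10 and 11 (714 to 860).
Camk2b forward: cctacggcaaacctgtggacat
Camk2b reverse: gccttgatctgctggtacagct
Camk2g forward: ggacacagtcactcctgaagct
Camk2g reverse: tctaccgtctcttggcgatgca
By PCR in different tumor samples, the study reported less *Camk2a* in *Th-MYCN/Casp2*-/- tumors, and less *Camk2a* and *Camk2b* in *EμMyc/Casp2*-/- tumors. The PCR values are not analysed here.

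In the same annotation *Camk2a* lies at chr18:60925618-60988152 and *Camk4* at chr18:32934931-33191228, *Camk2b* at chr11:5969644-6066362 and *Camkk1* at chr11:73019008-73042073. *Camk2d* lies at chr3:126596302-126846326, *Camk2g* at chr14:20734875-20794088, *Camk1d* at chr2:5293457-5714515, *Camk1* at chr6:113334124-113343984 and *Camkk2* at chr5:122731170-122779409. Of the 9 genes 2 share exon bases with a gene on the other strand. For *Camk1*, 232 of its 5975 exon bases (3.88%) are also exon of *Ogg1*, a DNA repair gene on the other strand, and the libraries did not keep strand, so reads there cannot be told apart. For *Camk4* it is 72 of 3259 bases (2.21%), shared with *2310026I22Rik*. Windows of 50 bases that also occur in a transcript of another gene made up 1.11% of those of *Camk1* (*Ogg1*), 0.862% of those of *Camk4* (*2310026I22Rik*) and 0.313% of those of *Camk2a* (*Gm43686*). *Ogg1* itself averaged 20.3 ± 6.93 CPM (SD, n = 4) in *Th-MYCN* tumors and 20.2 ± 1.64 (n = 4) where *Casp2* was deleted.

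The kinase genes ranked differently in the 2 tumor types. Per kb of exon, *Camk2b* and *Camk2g* led in the neuroblastomas, and *Camkk2* and *Camk2g* in the lymphomas. Exon length here is the union over all transcripts of a gene, and the order of genes rests on it. It is 5975 bases for *Camk1*, 9125 for *Camk2b*, 10921 for *Camkk2* and 7427 for *Camk1d*. Their coding transcripts have 1496, 2223, 4861 and 6962 bases. Scaled to those, *Camk1* and *Camk2b* would stand higher against the other 2, and that order was not made for all 9 genes. In *Th-MYCN* tumors *Camk2b* stood at 21.0 ± 6.44 CPM per kb (SD, n = 4), *Camk2g* at 14.3 ± 1.88, *Camk1d* at 11.2 ± 0.801 and *Camkk1* at 7.14 ± 0.754. *Camkk2* (4.55 ± 0.884), *Camk2a* (4.01 ± 3.68), *Camk4* (3.01 ± 1.97), *Camk2d* (2.86 ± 0.917) and *Camk1* (2.63 ± 1.03) followed, and these lower 5 overlapped each other. In *EμMyc* tumors *Camkk2* (8.96 ± 1.21 CPM per kb, n = 4), *Camk2g* (7.92 ± 0.986) and *Camk2b* (7.53 ± 6.66) came first and did not differ beyond their spread, while *Camk1* (1.10 ± 0.180) and *Camkk1* (0.698 ± 0.375) came last. Between them stood *Camk2d* (4.25 ± 1.56), *Camk1d* (4.03 ± 0.901), *Camk2a* (3.25 ± 1.72) and *Camk4* (2.11 ± 1.59), which overlapped.

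In the *Casp2*-/- tumors the order changed at a few places. Ranks between genes again rest on exon length, among them those of *Camk1* beside *Camk1d* and of *Camk2b* in the lymphomas. *Th-MYCN/Casp2*-/- tumors had *Camk2b* (19.1 ± 2.51 CPM per kb, n = 4) and *Camk2g* (19.1 ± 3.22) level at the top, *Camk1* (7.76 ± 2.98) beside *Camk1d* (8.11 ± 1.56), and *Camk2a* last at 0.332 ± 0.239, below the range of every other member. *EμMyc/Casp2*-/- tumors had *Camkk2* (8.34 ± 1.24, n = 3) and *Camk2g* (7.71 ± 0.587) at the top, as in *EμMyc* tumors, with *Camk2b* (0.860 ± 0.799) now last and within the spread of *Camk1* (1.27 ± 0.553) and *Camk2a* (1.26 ± 0.635). *Camk4* had the widest spread there (7.24 ± 9.98), as 1 of the 3 tumors held most of it.

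**Figure D1:**
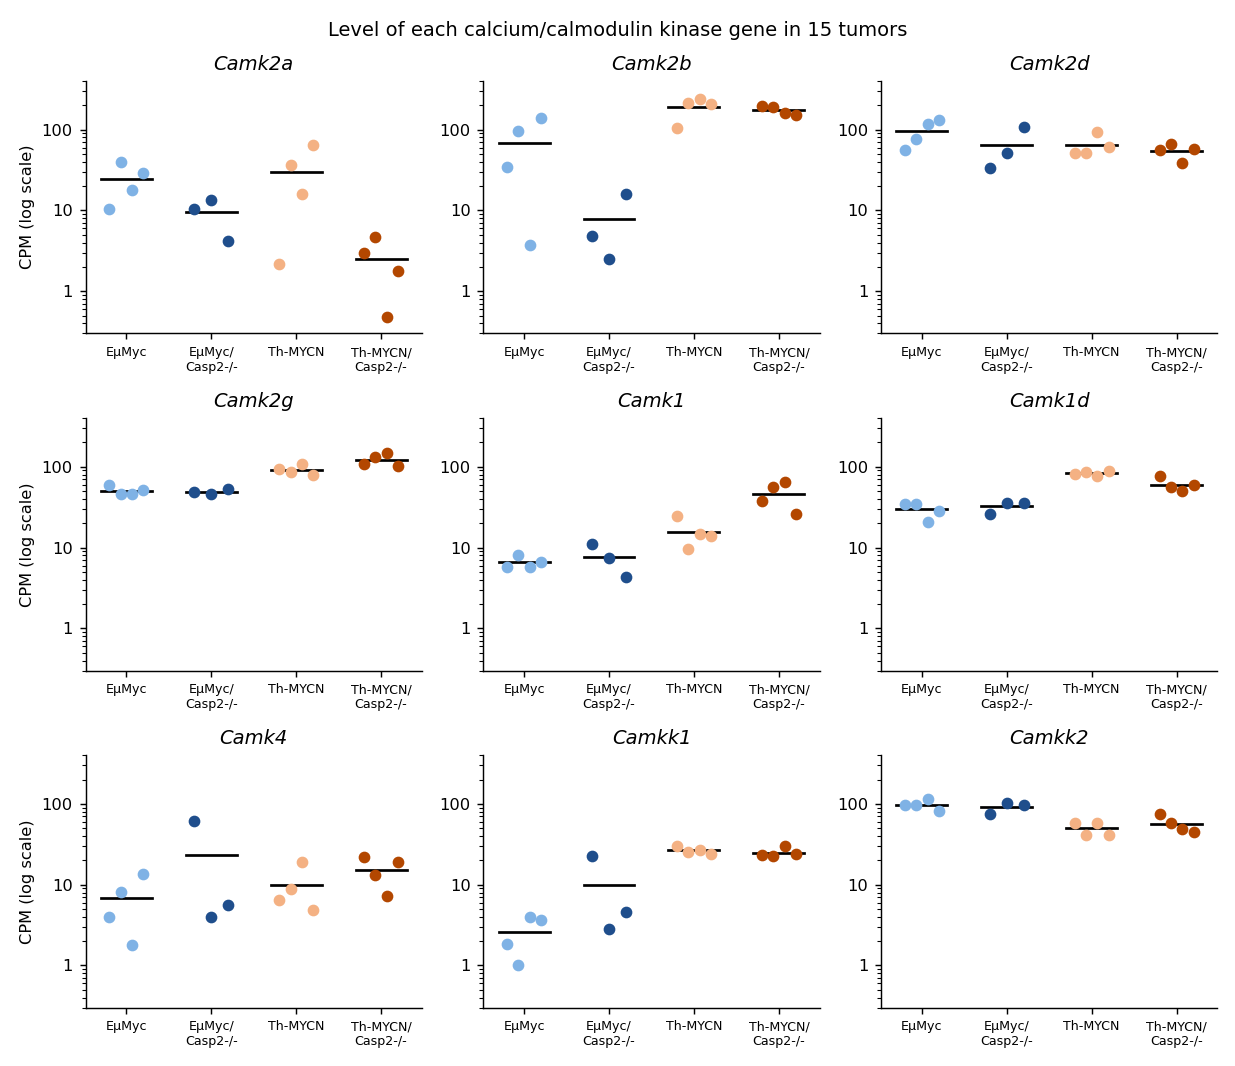
CPM (log scale) of each kinase gene in each tumor, 1 panel a gene, with points for tumors, lines for group means and the 4 groups from left to right. *Camk2g*, *Camk1d* and *Camkk2* form narrow groups, while *Camk2a* spans 0.482 to 65.3 CPM in the neuroblastomas and *Camk2b* 2.50 to 139 CPM in the lymphomas.

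In the lymphomas the most even and the most uneven member were paralogs of each other. Over the 7 lymphomas the highest *Camk2g* value was 1.297 times the lowest (45.9 to 59.5 CPM), and that of *Camk2b* 55.4 times (2.50 to 139 CPM). Over the 8 neuroblastomas the corresponding ratio was smallest for *Camkk1*, at 1.36 (22.4 to 30.4 CPM), and was 1.85 for *Camk2g* (79.4 to 147 CPM), 2.26 for *Camk2b* (106 to 240 CPM) and 136 for *Camk2a* (0.482 to 65.3 CPM).

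The mix of CaM kinase II genes varied among the tumors of a group, and each of the 4 shares overlapped between the genotypes of either tumor type. *Camk2b* and *Camk2g* made up most of the CaM kinase II level of every neuroblastoma, *Camk2a* was a visible part in 3 *Th-MYCN* tumors, and *Camk2g* was the largest part in all 3 *EμMyc/Casp2*-/- lymphomas. Shares are each gene's part of the summed reads per kb of exon of the 4 genes in a tumor. They are the readout that chose the genes and were not tested.

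In the neuroblastomas the *Camk2b* share was 48.9 ± 5.92% (SD, n = 4) in *Th-MYCN* and 46.7 ± 4.34% (n = 4) in *Th-MYCN/Casp2*-/- tumors, and the *Camk2g* share 35.5 ± 10.4% and 46.6 ± 5.57%. The *Camk2a* share was 1.03% in MYCN175, 11.02% in MYCN235, 4.295% in MYCN332 and 18.8% in MYCN391. In the *Th-MYCN/Casp2*-/- tumors it was 0.950% in MYCNC2ko118, 1.402% in MYCNC2ko144, 0.153% in MYCNC2ko176 and 0.680% in MYCNC2ko180. MYCN175 thus fell among the *Casp2*-/- tumors and the other 3 *Th-MYCN* tumors above them. *Camk2b* was the largest part in 3 of 4 tumors of either genotype, and *Camk2g* in MYCN175 and MYCNC2ko176, which had the latest onset of their groups (21 and 24 weeks). This order rests on the length scaling, as by raw reads *Camk2b* was the largest part in all 8 neuroblastomas.

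In the *EμMyc* lymphomas the *Camk2b* share was 22.5% in EuMyc614, 40.3% in EuMyc743b, 2.70% in EuMyc829 and 46.1% in EuMyc835. The *EμMyc/Casp2*-/- lymphomas held 4.86% in EuMycC2ko215, 2.37% in EuMycC2ko239 and 11.4% in EuMycC2ko245. EuMyc829 had a *Camk2b* share as low as the *Casp2*-/- tumors, and the other 3 *EμMyc* tumors lay above all of them. *Camk2g* took 68.7, 62.2 and 53.8% in the 3 *Casp2*-/- tumors against 54.6, 27.0, 47.3 and 24.3% in the *EμMyc* tumors. *Camk2d* held 19.9 ± 9.82% (SD, n = 4) and 21.5 ± 8.89% (n = 3) in the 2 lymphoma groups, and 6.83 ± 1.62% and 5.92 ± 1.37% (n = 4 each) in the *Th-MYCN* and *Th-MYCN/Casp2*-/- groups. *Camk2d* has long exons outside its coding part, so counted as raw reads it held 41.4% in *EμMyc* and 46.5% in *EμMyc/Casp2*-/- tumors and, in the latter, *Camk2g* held 39.8%. By raw reads *Camk2d* was the largest part in EuMyc829, EuMycC2ko239 and EuMycC2ko245.

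**Figure D2:**
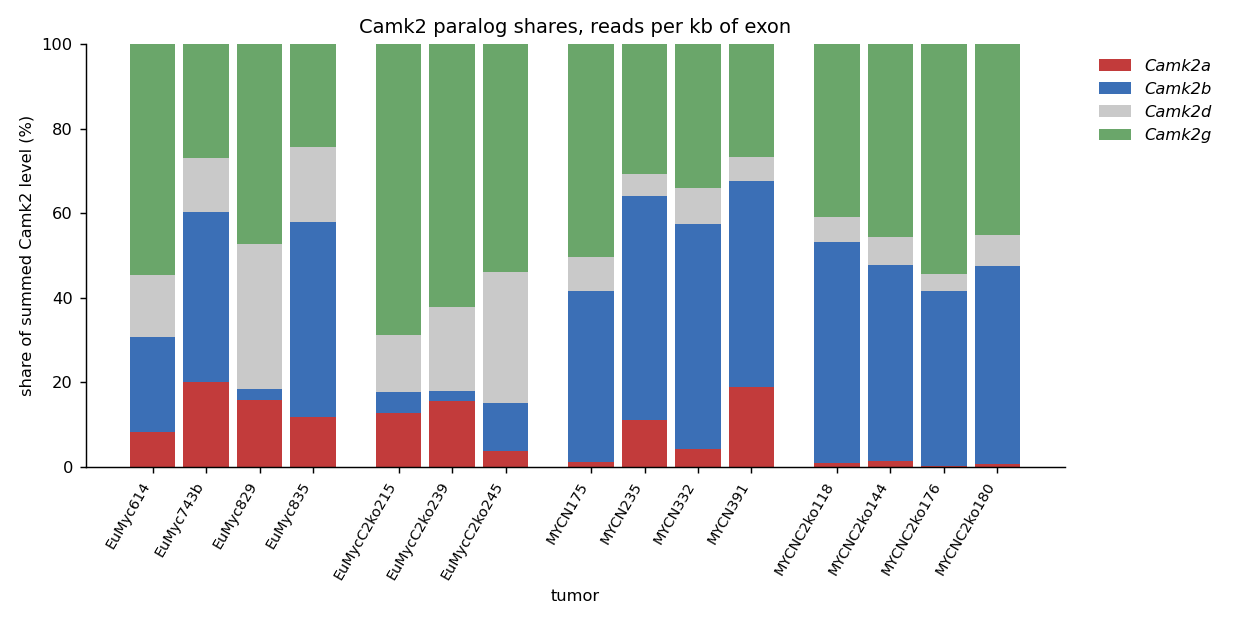
Share (%) of each *Camk2* gene in the summed CaM kinase II level of each tumor, in reads per kb of exon, with 1 bar a tumor and groups set apart by gaps. *Camk2g* is the largest part in the 3 *EμMyc/Casp2*-/- tumors (53.8 to 68.7%), and *Camk2a* is at most 1.402% in the *Th-MYCN/Casp2*-/- tumors.

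The summed CaM kinase II level was 42.2 ± 9.25 CPM per kb (SD, n = 4) in *Th-MYCN* and 41.0 ± 4.10 (n = 4) in *Th-MYCN/Casp2*-/- tumors, and the 2 groups overlapped. It was 22.96 ± 8.29 (n = 4) in *EμMyc* and 12.7 ± 2.46 (n = 3) in *EμMyc/Casp2*-/- tumors. EuMyc829 (15.3) was the only *EμMyc* tumor below a *Casp2*-/- tumor, EuMycC2ko245 (15.5).

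Loss of *Casp2* went with less *Camk2a* and more *Camk1* in the neuroblastomas. *Camk2a*, the best known CaM kinase II gene of neurons, fell 12.0-fold in the fit, and *Camk1*, the alpha form of CaM kinase I, rose 2.95-fold. The other 7 kinase genes did not pass, among them *Camk2b*, at similar levels in both groups. Of the 9 genes, 2 were called (FDR under 0.05 and over 2-fold) by edgeR's likelihood ratio test (LRT), where 0.813% of all genes tested were. DESeq2 called 2 (0.780% of all genes), and edgeR's stricter quasi-likelihood test (QLF) called 0 (0.0336%), with 4 of the 9 at an unadjusted p under 0.05 by the LRT (7.78% of all genes) and 4 by QLF (6.77%). As this contrast helped to choose the genes, nothing is read from these shares.

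*Camk2a* stood at 2.20 CPM in MYCN175, 36.2 in MYCN235, 15.9 in MYCN332 and 65.3 in MYCN391. In the *Th-MYCN/Casp2*-/- tumors it stood at 2.95 in MYCNC2ko118, 4.69 in MYCNC2ko144, 0.482 in MYCNC2ko176 and 1.79 in MYCNC2ko180. The 3 high values were all *Th-MYCN*, but MYCN175 lay inside the *Casp2*-/- range, so the groups overlapped. The log2 fold change was -3.58 ± 0.76 (SE; LRT FDR 0.00608), and the QLF FDR was 0.220. Without MYCN391, the tumor with the most *Camk2a*, the value was -2.86 and the FDR 0.0968, and in the other 7 fits that left out 1 tumor the call stood. The 3 tumors with onset at 15 weeks held 65.3 CPM (MYCN391, *Casp2* wild type), 2.95 and 1.79 (MYCNC2ko118 and MYCNC2ko180), and MYCN175, the low *Th-MYCN* tumor, had the latest onset of its group.

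*Camk1* stood at 24.3 CPM in MYCN175, 9.66 in MYCN235, 14.8 in MYCN332 and 14.1 in MYCN391. It stood at 37.7, 56.5, 65.3 and 26.0 in MYCNC2ko118, MYCNC2ko144, MYCNC2ko176 and MYCNC2ko180. Every *Casp2*-/- tumor exceeded every *Th-MYCN* tumor, by little between MYCNC2ko180 and MYCN175. MYCN175, the highest *Th-MYCN* tumor, had its onset at 21 weeks, and MYCNC2ko144 and MYCNC2ko176, the highest *Casp2*-/- tumors, at 18 and 24 weeks. Among tumors with onset at 15 weeks, MYCN391 held 14.1 CPM, and MYCNC2ko118 and MYCNC2ko180 held 37.7 and 26.0. The part of age at onset in *Camk1* was not tested. *Camk1* was the only one of the 9 genes whose groups did not overlap, and 2.94% of all genes tested were higher without overlap. The log2 fold change was 1.56 ± 0.37 (LRT FDR 0.0109, QLF FDR 0.205). Reads of the first strand, which are other reads of the same libraries, gave 1.65 (LRT FDR 0.0142). The call was lost without MYCN235 (1.39, FDR 0.125), MYCN391 (1.51, FDR 0.116), MYCNC2ko144 (1.46, FDR 0.0897) or MYCNC2ko176 (1.36, FDR 0.0814).

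In the *Th-MYCN* tumors *Camk2g* averaged 91.7 ± 12.0 CPM (SD, n = 4), against 122 ± 20.6 (n = 4) in those without *Casp2*, with a log2 fold change of 0.42 ± 0.18 (LRT FDR 0.450). *Camk1d*, the delta form of CaM kinase I, had 83.3 ± 5.95 and 60.2 ± 11.6 CPM and a log2 fold change of -0.47 ± 0.21 (LRT FDR 0.523). Both groups overlapped by 1 tumor each at their edge, MYCN332 with 108 CPM for *Camk2g* and MYCNC2ko118 with 76.6 CPM for *Camk1d*. *Camk2b* had 192 ± 58.7 and 175 ± 22.9 CPM (log2 fold change -0.13 ± 0.68), and *Camk2d* 64.2 ± 20.6 and 54.1 ± 11.5 (-0.25 ± 0.36). Of the nuclear kinase and its activators, *Camk4* had 9.81 ± 6.41 and 15.4 ± 6.49 CPM (0.65 ± 0.76), *Camkk1* 26.6 ± 2.81 and 25.0 ± 3.33 (-0.09 ± 0.52) and *Camkk2* 49.7 ± 9.66 and 56.6 ± 13.6 (0.19 ± 0.22). The LRT FDR was 1 for these 5 genes. The 95% intervals of *Camk2b* (-1.47 to 1.20), *Camk4* (-0.84 to 2.14) and *Camkk1* (-1.10 to 0.93) reached past 2-fold, so a change of that size was not excluded for them.

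Of the marker lists of other cells, only the endothelial one had sums without overlap between genotypes in the neuroblastomas. Macrophage markers (463 to 678 CPM in *Th-MYCN* against 274 to 646 in *Th-MYCN/Casp2*-/- tumors) overlapped, as did T cell markers (38.9 to 42.8 against 33.9 to 47.8 CPM). In these 2 lists 0 genes were called by the LRT or QLF. The 5 endothelial markers summed to 48.6 to 74.2 CPM in *Th-MYCN* and 18.0 to 36.2 in *Th-MYCN/Casp2*-/- tumors without overlap, and 2 of the 5 were called down, *Pecam1* (-1.20 ± 0.24, LRT FDR 0.000552, QLF FDR 0.0812) and the VEGF receptor gene *Kdr* (-1.46 ± 0.38, LRT FDR 0.0308, QLF FDR 0.220). MYCN175 held 74.2 CPM of these markers and 2.20 CPM of *Camk2a*. Of 6 muscle markers 4 were lower and 2 higher, *Acta2* was called down (-1.97 ± 0.53, LRT FDR 0.0402, QLF FDR 0.270), and their sums overlapped (28.7 to 193 against 18.4 to 236 CPM). The 6 Schwann and glial markers summed to 34.4 to 76.0 CPM in *Th-MYCN* and 63.1 to 95.1 in *Th-MYCN/Casp2*-/- tumors, and 0 of the 5 tested were called by either test, with 1 at an unadjusted p under 0.05 by each. The 7 ganglion and mature neuron markers summed to 3271 to 7966 CPM in *Th-MYCN* and 6641 to 10323 in *Th-MYCN/Casp2*-/- tumors, which overlapped, with 0 of the 7 called by the LRT or QLF and 1 at an unadjusted p under 0.05 by each. *Th*, the tyrosine hydroxylase gene and 1 of the sympathoadrenal markers, ranged from 314 to 1447 and from 75.9 to 246 CPM without overlap and was not called (-2.55 ± 0.69, LRT FDR 0.0546, QLF FDR 0.220). The part of these cells in the *Camk2a* and *Camk1* values was not tested, and in bulk tumors fewer cells of a type and less RNA per cell cannot be told apart.

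In the lymphomas loss of *Casp2* went with less *Camk2b*, which fell 8.73-fold in the fit. *Camkk1*, an activator of CaM kinases I and IV, and *Camk4* had high values in a single *Casp2*-/- tumor and did not pass. The LRT called 1 of the 9 genes, downward, where it called 1.44% of all genes tested and 0.302% downward. DESeq2 called 2 (1.36% of all genes) and QLF 0 (0.141%), with 3 of the 9 at an unadjusted p under 0.05 by the LRT (9.89% of all genes) and 2 by QLF (8.53%). The groups overlapped for all 9 genes, and 3.70% of all genes tested had groups without overlap.

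*Camk2b* stood at 34.9 CPM in EuMyc614, 97.6 in EuMyc743b, 3.78 in EuMyc829 and 139 in EuMyc835. In the *EμMyc/Casp2*-/- tumors it stood at 4.88 in EuMycC2ko215, 2.50 in EuMycC2ko239 and 16.2 in EuMycC2ko245. EuMyc829 lay within the *Casp2*-/- range and the other 3 *EμMyc* tumors above it. The log2 fold change was -3.13 ± 0.75 (LRT FDR 0.0191, QLF FDR 0.223), and in a fit of the 7 lymphomas alone it was -3.13 with an LRT FDR of 0.274. The LRT call was also lost without EuMycC2ko215 (-2.87, FDR 0.290), EuMycC2ko239 (-2.69, FDR 0.0920), EuMyc743b (-2.91, FDR 0.0505) or EuMyc835 (-2.53, FDR 0.0731).

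*Camkk1* stood at 1.84, 1.03, 3.94 and 3.61 CPM in EuMyc614, EuMyc743b, EuMyc829 and EuMyc835, and at 22.5, 2.84 and 4.54 in EuMycC2ko215, EuMycC2ko239 and EuMycC2ko245. *Camk4* stood at 3.94, 8.13, 1.81 and 13.6 CPM in the same *EμMyc* tumors and at 61.1, 4.01 and 5.65 in the *Casp2*-/- tumors. Both genes were highest in EuMycC2ko215, and the other 2 *Casp2*-/- tumors overlapped the *EμMyc* range. The log2 fold change of *Camkk1* was 1.91 ± 0.58 (LRT FDR 0.0608, QLF FDR 0.282) with EuMycC2ko215 and 0.52 (LRT FDR 1) without it. That of *Camk4* was 1.78 ± 0.82 (LRT FDR 0.412) with this tumor and -0.49 (LRT FDR 1) without it. DESeq2 called *Camkk1* (1.97, FDR 0.0462), as did the LRT without EuMycC2ko239 (2.38, FDR 0.00229) or EuMycC2ko245 (2.25, FDR 0.00925).

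The 10 T cell markers summed to 54.1 to 140 CPM in *EμMyc* and 201 to 1589 in *EμMyc/Casp2*-/- lymphomas without overlap, and EuMycC2ko215 was the highest. Of the 10, 5 were called up by the LRT and 0 by QLF (10 at an unadjusted p under 0.05): *Cd8b1* (5.34 ± 1.31, LRT FDR 0.0273), *Cd8a* (5.12 ± 1.17, FDR 0.0117), *Cd3d* (4.77 ± 1.26, FDR 0.0414), *Zap70* (2.58 ± 0.54, FDR 0.000984) and *Cd4* (2.21 ± 0.64, FDR 0.0482). *Gata3*, listed here with the sympathoadrenal genes and also known from T helper cells, was called up as well (3.78 ± 0.86, LRT FDR 0.00296, QLF FDR 0.223). Without EuMycC2ko215, 1 of the 10 T cell markers was called, *Zap70* (2.58, LRT FDR 0.00706), and *Gata3* was not (1.34, LRT FDR 0.864). B cell markers overlapped between the genotypes (2082 to 4937 against 3015 to 3257 CPM). The sums of 5 macrophage markers overlapped as well (437 to 849 against 230 to 1302 CPM), with EuMycC2ko215 again the highest. The part of T cells or macrophages in the *Camk4* and *Camkk1* values was not tested.

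**Figure D3:**
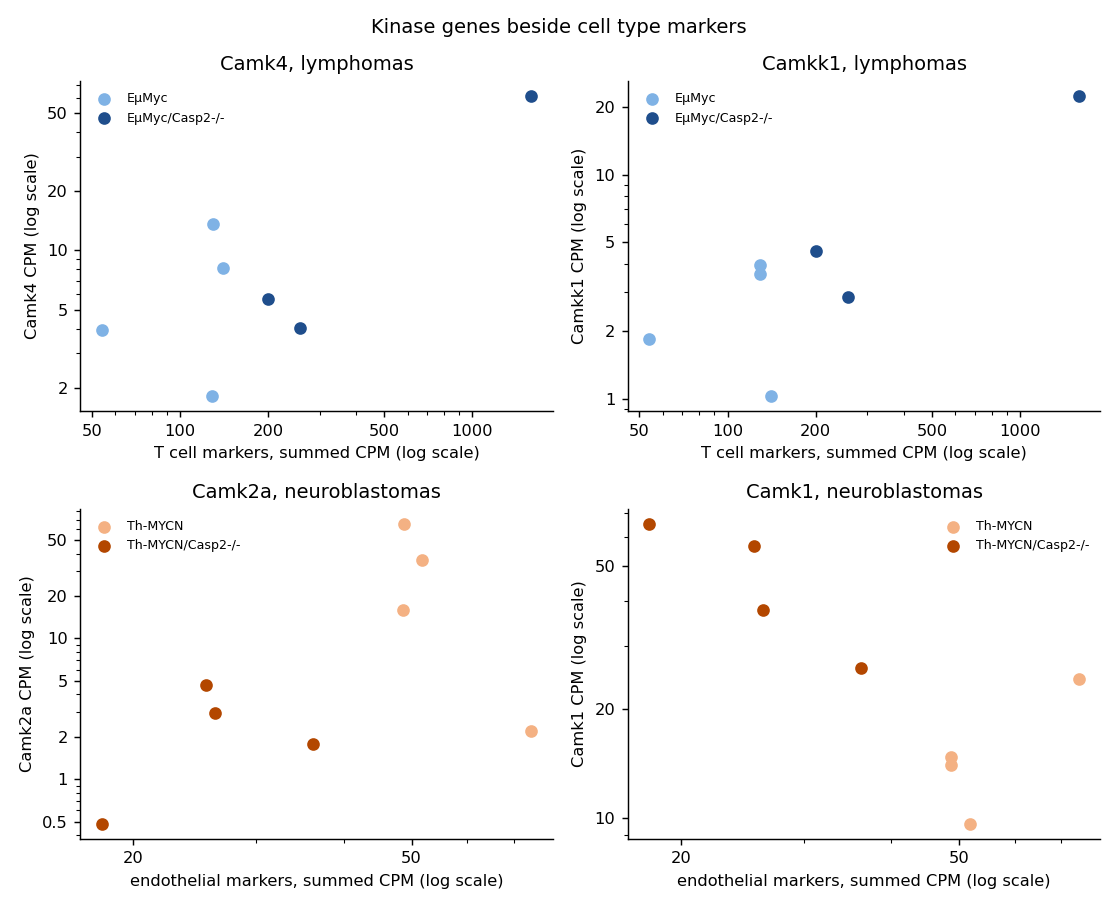
*Camk4* and *Camkk1* against the summed T cell markers in the 7 lymphomas (top), and *Camk2a* and *Camk1* against the summed endothelial markers in the 8 neuroblastomas (bottom), all in CPM on log scales with 1 point a tumor. EuMycC2ko215 lies alone at 1589 CPM of T cell markers with the highest *Camk4* (61.1) and *Camkk1* (22.5), and MYCN175 combines the most endothelial markers (74.2) with little *Camk2a* (2.20).

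The other 6 kinase genes did not pass between the lymphoma genotypes. *Camk2g* had 50.7 ± 6.31 CPM (SD, n = 4) and 49.4 ± 3.76 (n = 3), a log2 fold change of -0.04 ± 0.20 whose 95% interval ran from -0.43 to 0.35. *Camkk2*, which also activates the energy sensor AMPK, had 97.9 ± 13.2 and 91.1 ± 13.6 CPM (-0.10 ± 0.23, interval -0.56 to 0.35), and *Camk1d* 29.9 ± 6.69 and 32.4 ± 5.23 (0.12 ± 0.24, interval -0.34 to 0.59). For these 3 genes the interval lay within 2-fold on either side. *Camk1* had 6.56 ± 1.08 and 7.57 ± 3.30 CPM (0.19 ± 0.42), *Camk2d* 95.6 ± 35.2 and 64.7 ± 39.1 (-0.56 ± 0.39) and *Camk2a* 24.3 ± 12.9 and 9.44 ± 4.74 (-1.36 ± 0.81, LRT FDR 0.661), with intervals that reached past 2-fold. Without EuMycC2ko215 the log2 fold change was -0.014 for *Camk2g*, 0.03 for *Camkk2*, 0.25 for *Camk1d*, -0.14 for *Camk1*, -0.23 for *Camk2d* and -1.43 for *Camk2a*, each with an LRT FDR of 1.

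Whether loss of *Casp2* acted differently in the 2 tumor types was tested by the interaction of genotype and tumor type. None of the 9 genes passed: 0 were called by the LRT, QLF or DESeq2, which called 0.914%, 0.0538% and 0.827% of all genes tested. At an unadjusted p under 0.05 there were 4 of the 9 by the LRT (8.96% of all genes) and 3 by QLF (7.57%). The smallest LRT FDR was that of *Camk2b* (0.184), whose log2 fold change in lymphomas minus that in neuroblastomas was -2.99 ± 1.011. *Camk2a*, called in the neuroblastomas and not in the lymphomas, had an interaction of 2.22 ± 1.11 (LRT FDR 0.542), and *Camk1* -1.37 ± 0.56 (LRT FDR 0.346), so neither was shown to differ between tumor types. *Camkk1* had 1.998 ± 0.778 (LRT FDR 0.288), *Camk1d* 0.59 ± 0.32 (FDR 0.615), *Camk2g* -0.45 ± 0.27 (FDR 0.677), *Camk4* 1.13 ± 1.12 (FDR 0.896), *Camkk2* -0.29 ± 0.32 (FDR 0.917) and *Camk2d* -0.31 ± 0.53 (FDR 0.966). *Camk2b* passed in 2 of the 15 fits that left out 1 tumor, without EuMyc829 (-3.40, FDR 0.00357) or EuMycC2ko245 (-4.12, FDR 0.0172), and *Camkk1* in 1, without EuMycC2ko239 (2.46, FDR 0.0437). Without EuMycC2ko215 *Camk2b* was at -2.74 (FDR 0.516) and *Camkk1* at 0.60 (FDR 0.916).

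**Figure D4:**
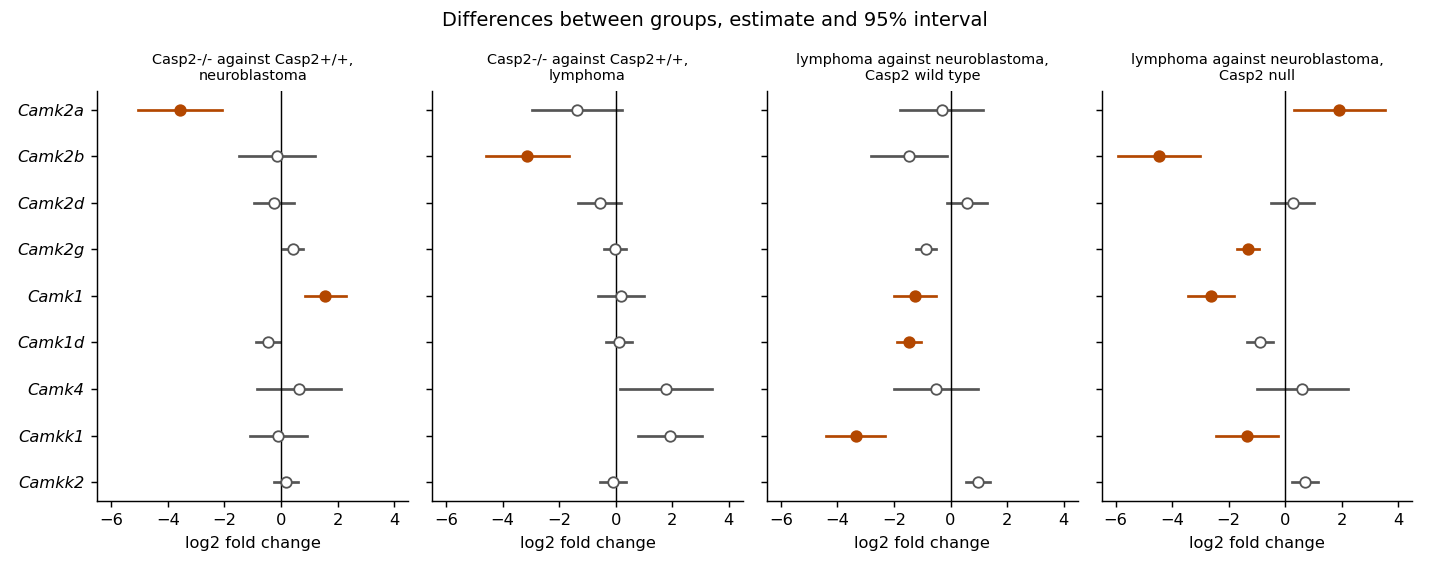
Log2 fold change of each kinase gene in 4 comparisons, with points for the estimate, lines for the 95% interval of the fit, and filled points for genes called by the LRT. *Camk2a* (-3.58) and *Camk1* (1.56) are called in the neuroblastomas and *Camk2b* (-3.13) in the lymphomas. *Camk1* and *Camkk1* are called lower in lymphoma at either genotype, *Camkk1* with overlapping groups in the *Casp2* null tumors. *Camk2g* and *Camk1d* are lower in lymphoma without overlap at either genotype, *Camk2g* called only in the null and *Camk1d* only in the wild type tumors.

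Between tumor types the upstream kinases went opposite ways, *Camkk1* lower and *Camkk2* higher in lymphoma, and both CaM kinase I genes were lower in lymphoma. In the *Casp2* wild type tumors the LRT called 3 of the 9 genes, all lower in *EμMyc* than in *Th-MYCN* tumors, where it called 47.5% of all genes tested and 28.5% downward. QLF called the same number (46.1% of all genes). They were *Camkk1* (-3.35 ± 0.53, LRT FDR 2.58e-08, QLF FDR 0.000108), *Camk1d* (-1.48 ± 0.22, LRT FDR 1.17e-10, QLF FDR 1.24e-05) and *Camk1* (-1.26 ± 0.38, LRT FDR 0.00217, QLF FDR 0.00676). *Camkk2* (0.98 ± 0.22, LRT FDR 2.08e-05) and *Camk2g* (-0.85 ± 0.18, LRT FDR 8.47e-06) passed the FDR with changes under 2-fold, which makes 5 of the 9 past the FDR alone, against 62.2% of all genes. These 5 genes were those without overlap between the groups, 1 higher (26.4% of all genes) and 4 lower (32.9%).

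*Camkk1* ranged from 1.03 to 3.94 CPM in the *EμMyc* and from 23.7 to 30.4 in the *Th-MYCN* tumors, and *Camkk2* from 82.2 to 115 against 41.3 to 58.6. *Camk1d* ranged from 20.9 to 35.1 against 76.1 to 89.7 CPM. These 3 pairs of ranges lie far apart, whereas *Camk1* (5.75 to 8.04 against 9.66 to 24.3 CPM) nearly met, and its call was lost with first strand reads (-0.93, FDR 0.0382) and without MYCN175 (-0.97). *Camk2b* was lower in *EμMyc* tumors by 1.48 ± 0.68 on the log2 scale (LRT FDR 0.0541), and passed without EuMyc835 (-2.07, FDR 0.0117) or MYCN175 (-1.67, FDR 0.0436). *Camk2a*, *Camk2d* and *Camk4* overlapped between the tumor types (-0.30 ± 0.75, 0.57 ± 0.36 and -0.52 ± 0.76).

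In the *Casp2* null tumors 5 of the 9 genes were called by the LRT and 3 by QLF, where the LRT called 48.0% and QLF 46.4% of all genes tested. The largest difference was that of *Camk2b*, from 2.50 to 16.2 CPM in *EμMyc/Casp2*-/- and from 150 to 198 in *Th-MYCN/Casp2*-/- tumors (-4.47 ± 0.74, LRT FDR 2.33e-06, QLF FDR 0.000668). *Camk1* (-2.63 ± 0.41, LRT FDR 2.01e-08) and *Camk2g* (-1.31 ± 0.20, LRT FDR 7.50e-10) were also called by both tests and lower in lymphoma. *Camkk1* (-1.35 ± 0.57, LRT FDR 0.0369, QLF FDR 0.0537) was lower and *Camk2a* (1.92 ± 0.82, LRT FDR 0.0342, QLF FDR 0.0657) higher in lymphoma by the LRT only. Each of these 2 calls stood in 2 of the 7 fits that left out 1 tumor. *Camkk1* ranged from -2.70 (without EuMycC2ko215, FDR 8.00e-08) to -0.85 (without EuMycC2ko239, FDR 0.199), and *Camk2a* from 1.57 (without MYCNC2ko176, FDR 0.100) to 2.41 (without MYCNC2ko144, FDR 0.0173), with 1.90 (FDR 0.0599) without EuMycC2ko215. Without that lymphoma *Camk2b* (-4.16), *Camk1* (-2.92) and *Camk2g* (-1.24) were called still. *Camk1d* (-0.89 ± 0.24, LRT FDR 0.000546) and *Camkk2* (0.69 ± 0.23, LRT FDR 0.00613) passed the FDR under 2-fold, which makes 7 of the 9 past the FDR alone, against 60.2% of all genes. *Camk4* went from 0.61 ± 0.82 to -1.61 when EuMycC2ko215 was left out. For 5 genes the groups did not overlap, *Camkk2* higher (23.6% of all genes) and *Camk2b*, *Camk2g*, *Camk1* and *Camk1d* lower (31.2%).

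The 55 pathway genes around these kinases, of which 52 passed the filter, gave 1 call between *Casp2* genotypes. In the neuroblastomas 0 of the 52 were called by the LRT, QLF or DESeq2, where these called 0.813%, 0.0336% and 0.780% of all genes tested, with 5 (LRT, 7.78% of all genes) and 3 (QLF, 6.77%) at an unadjusted p under 0.05. In the lymphomas 1 was called by the LRT, which called 1.44% of all genes. It was *Nrgn*, which encodes neurogranin, a protein that holds calmodulin when calcium is low: it rose from 3.67 ± 4.21 CPM (SD, n = 4) to 39.8 ± 30.9 (n = 3), by 3.44 ± 0.77 on the log2 scale (LRT FDR 0.00448, QLF FDR 0.142). Its ranges, 0.866 to 9.77 and 4.14 to 59.1 CPM, overlapped, and the call was lost without EuMycC2ko215 (3.13, LRT FDR 0.0585).

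Between the tumor types many pathway genes differed, as did the genome at large. The relatives and inhibitors of the CaM kinases were lower in *EμMyc* than in *Th-MYCN* tumors in 4 of 7 cases and higher in 0, with a median log2 fold change of -3.46 against -0.04 over all genes. They included *Pnck*, the beta form of CaM kinase I (-8.12 ± 0.60), the death-associated kinase gene *Dapk1* (-5.04 ± 0.33) and *Camk1g* (-4.34 ± 0.83). Of 7 genes of calmodulin and its buffers 3 were lower and 0 higher, with *Gap43*, a growth cone protein (-9.93 ± 0.57), *Pcp4* (-3.59 ± 1.31) and *Calm2* (-1.04 ± 0.23). Of 7 genes of calcineurin, the phosphatase that calmodulin activates, and its regulators 4 were lower and 0 higher, led by *Rcan2* (-7.24 ± 0.70), *Rcan3* (-2.45 ± 0.39) and *Rcan1* (-1.54 ± 0.29).

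Substrates and stores split in both directions. Of 18 substrates and effectors 3 were higher in *EμMyc* tumors and 7 lower, with a median of -0.12. The lower ones included synapsin, *Syn1* (-7.55 ± 0.41), and the glutamate receptor gene *Gria1*, at 20.8 ± 8.08 CPM in *Th-MYCN* tumors and at most 0.0855 in *EμMyc* tumors, and the transcription factor gene *Mef2c* was higher (4.44 ± 0.40). Of 11 genes of calcium release and entry 5 were higher and 1 lower, with a median of 0.67. They included the IP3 receptor genes *Itpr3* (4.66 ± 0.33) and *Itpr2* (3.69 ± 0.43), and the ryanodine receptor gene *Ryr3* was the lower one (-3.63 ± 0.62). Of the 2 phosphatases that switch CaM kinases off, *Ppm1f* was higher (1.51 ± 0.36, LRT FDR 0.000129). These values describe tumors that differ in cell of origin, and 47.5% of all genes were called in the same comparison.

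**Figure D5:**
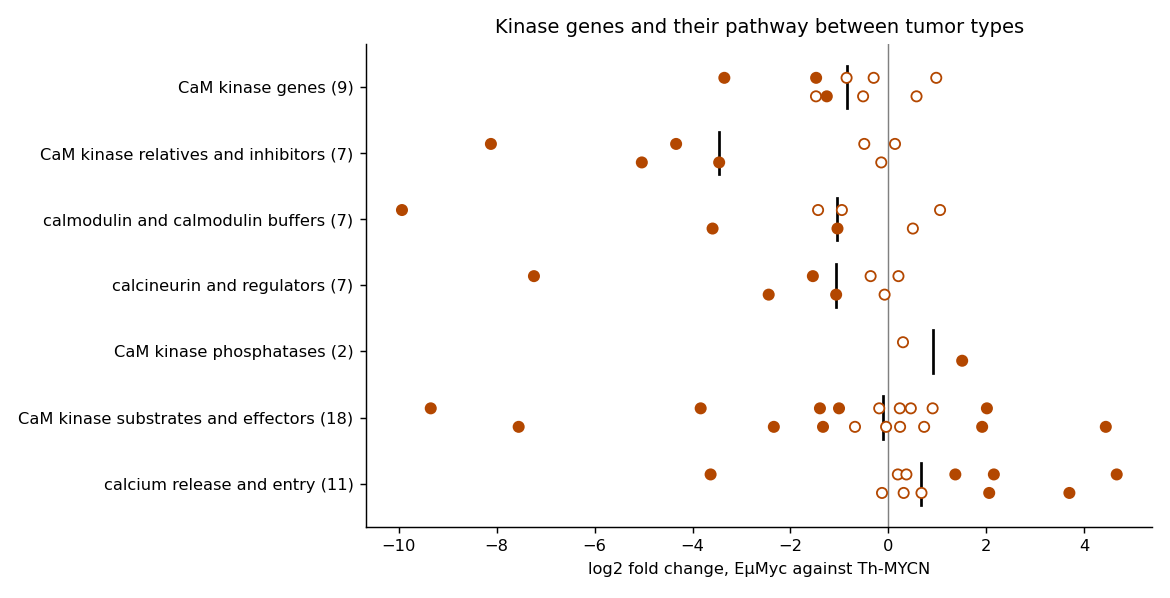
Log2 fold change of *EμMyc* against *Th-MYCN* tumors for the 9 kinase genes and 6 lists of pathway genes, with 1 point a gene, filled where called by the LRT, a bar at each list's median and the number of genes tested in brackets. The medians run from -3.46 for the relatives and inhibitors to 0.90 for the phosphatases.

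The genes most like each variable kinase gene were found by the correlation of log2 CPM over tumors, with no test. The 8 neuroblastomas were of both genotypes and had 10353787 to 17638029 reads, and the part of genotype and depth in these correlations was not tested. Over them *Camk2a* was most like *Dcaf12l1* (Pearson r 0.988, Spearman rho 1), *Dock10* (0.980, 0.976), *Ccdc164* (0.975, 0.976), *Nbeal2* (0.974, 0.929) and *Nptx2* (0.969, 0.952). *Dcaf12l1* and *Nptx2* were at or under 0.366 CPM in MYCN175 and at 14.02 and 10.6 CPM in MYCN391. In the *Th-MYCN/Casp2*-/- tumors they ranged from 0 to 1.03 and from 0 to 1.51 CPM, so their low ranks rest partly on very few reads. *Dcaf12l1*, *Nptx2* and *Ccdc164* had a mean over 1 CPM only through MYCN235, MYCN332 and MYCN391, the tumors with the most *Camk2a*. *Ccdc164* stood at 5.52, 3.23 and 4.20 CPM in them and from 0.289 to 1.29 CPM in the other neuroblastomas. Over the same tumors *Camk2b* was most like *Gm88* (0.989, 1), *Olfm3* (0.979, 0.976), *Pde4a* (0.972, 0.976), *Phax* (0.959, 0.786) and *Taf5l* (0.951, 0.905). *Camk2b* was lowest in MYCN175, as were all of these genes. Over the 7 lymphomas *Camk4* was most like *Rundc1* (0.987, 0.964), *Tbcb* (0.977, 0.893), *Vps28* (0.971, 0.929), *Manbal* (0.969, 0.857) and *3200002M19Rik* (0.968, 0.964), all of which, like *Camk4*, were highest in EuMycC2ko215. Each set of 5 is the top of 13782 (neuroblastomas) or 12763 (lymphomas) genes.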

How the data were processed

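The values are counts of reads per gene in 15 tumors of separate mice, and errors are between mice. Per the labels and the study's methods, the authors isolated total RNA with TRIzol, selected polyadenylated transcripts, read 50 bases from 1 end of each fragment and mapped them to the mouse genome (mm10/GRCm38) with STAR. The counts they deposited are not normalized and come for either strand together and for each strand alone. Those of the second strand served here, the column the study took. It held 48.8 to 49.3% of what the 2 strand columns held together, so strand was not kept and a like number of reads was left out. Tool versions and the release of the gene annotation are not given in the sources used here. Positions, exon lengths and sequences came from GENCODE M21 (GRCm38), matched by symbol.

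The software was R 4.3.3, with limma 3.58.1, edgeR 4.0.16 and, as an alternative, DESeq2 1.42.0. After TMM scaling edgeR fitted the 15 libraries jointly, with group means as the only terms (11 residual degrees of freedom), over genes that passed the filter of 1 CPM in 3 tumors. The likelihood ratio test (LRT), named in the study, was the main test, p-values were adjusted by Benjamini-Hochberg over all genes tested, and calls needed FDR under 0.05 and over 2-fold. QLF, edgeR's quasi-likelihood test, is given beside it: between neuroblastoma genotypes the LRT called 121 genes and QLF 5, and between lymphoma genotypes 215 and 21. A value after ± beside a log2 fold change is its SE. The fits were also run on counts simulated from the fitted model, for loss of *Casp2* in either tumor type and for the wild type tumor types. Such counts follow the model, so they cannot show whether the LRT calls too many genes in these tumors.

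The kinase genes, pathway lists and marker lists were chosen with earlier results of these data known. All 9 kinase genes are named in every comparison, and of the other lists the genes called in a comparison of *Casp2* genotypes and the 3 with the largest change among those called between wild type tumors, with *Casp2* as a check of the labels. *Ogg1* and *Th* were added after their values were seen. The genes most like a kinase gene had a mean over 1 CPM and the highest Pearson r of log2 CPM with a prior count of 2. Alternatives were QLF, DESeq2, RLE size factors, other filters, the other count columns, fits of the compared groups alone and leaving out each tumor.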

Additional observations from a re-analysis of the deposited data

How the results depend on the processing

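No paired analysis was possible because the labels give each mouse its own number and no number is shared between groups. Among the 9 genes QLF called 0 in the neuroblastomas, 0 in the lymphomas and 3 between the *Casp2* null tumor types. DESeq2 called 2 in the lymphomas, a fit of the lymphomas alone 0, and first strand reads 3 between the null tumor types. Leaving out each tumor in turn gave 0 to 2 calls in the neuroblastomas, 0 to 2 in the lymphomas, 3 to 5 between tumor types at either genotype and 0 to 1 in the interaction. First strand reads turned *Camk1* in the lymphomas from 0.19 to -0.080.

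Some log2 fold changes turned sign when 1 tumor was left out. In the lymphomas *Camk1* ranged from -0.14 to 0.46, *Camkk2* from -0.18 to 0.027 and *Camk4* from -0.49 to 2.35, each turned without EuMycC2ko215. *Camk2g* ranged from -0.11 to 0.072 there, turned without EuMyc614 and, at 0.02, without EuMycC2ko239, and *Camk1d* from -0.024 (without EuMyc829) to 0.25. In the interaction *Camk4* ranged from -1.15 to 1.70 and *Camk2d* from -0.93 to 0.0077, both turned without EuMycC2ko215. Between the null tumor types *Camk4* ranged from -1.61 (without EuMycC2ko215) to 1.18 and *Camk2d* from -0.35 (without EuMycC2ko245) to 0.63. Between the wild type tumor types *Camk4* ranged from -1.08 to 0.028 (without MYCN332) and *Camk2a* from -0.69 to 0.42 (without MYCN391).

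As raw reads with no length scaling, *Camk2d* held 41.4% in *EμMyc*, 46.5% in *EμMyc/Casp2*-/-, 17.2% in *Th-MYCN* and 15.3% in *Th-MYCN/Casp2*-/- tumors, and *Camk2g* held 39.8% in *EμMyc/Casp2*-/- and 34.7% in *Th-MYCN/Casp2*-/- tumors. Per kb of the coding transcript, an alternative added after seeing the data, *Camk2b* held 51.5% in *Th-MYCN/Casp2*-/- tumors. Over these 2 scalings and the other 2 count columns the remaining 57 values, and all 60 with 1 tumor left out, moved by less than 1 SD between tumors. The least covered value, *Camk2a* in MYCNC2ko176, rests on 5 reads. Beyond the length scaling, the cause of these shifts was not tested.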
